A study of Caenorhabditis elegans with 8 samples.

Results

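Transcripts of 10 genes of glycolysis were followed in whole Caenorhabditis elegans: the hexokinase hxk-1, the glucose phosphate isomerase gpi-1, the phosphofructokinase pfk-1.1, the aldolases aldo-1 and aldo-2, the 4 genes of glyceraldehyde phosphate dehydrogenase (GAPDH) gpd-1, gpd-2, gpd-3 and gpd-4, and the pyruvate kinase pyk-1. The genes were chosen by symbol as enzymes of this pathway, with earlier results of these data known. P-values for these genes and their ratios are therefore descriptive. All 10 were found among the 17076 genes of the deposited table, and all 10 passed the filter on low values. The worms were hermaphrodites of the wild-type strain N2, with no transgene or mutation named, labelled adult day 5 (grown for 180 h from synchronized larvae) or adult day 1 (grown for 60 h), both at 20 °C on NGM plates with OP50 bacteria. Each age had 4 libraries of poly(A)-selected RNA, 1 from each of 4 labelled batches. Separate cultures are not named in the labels, and p-values therefore speak only of the spread among these libraries, which may be technical. The stated ages lie closer together than the growth times, and the series design text gives both groups the same short name; the treatment label set the group of each sample.

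Glycolysis splits glucose into pyruvate in the cytosol. Hexokinase traps glucose as a sugar phosphate, phosphofructokinase commits it to the pathway, aldolase cleaves the sugar into triose phosphates, GAPDH carries out the oxidation that yields NADH, and pyruvate kinase makes ATP and pyruvate. Several steps are encoded by more than one gene in the worm. The GAPDH genes form 2 pairs of near-identical copies, and the pair gpd-2 and gpd-3 is known as the major form of later larval and adult stages, prominent in body-wall muscle, while the pair gpd-1 and gpd-4 is known as a minor form present in embryos.

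The deposited values are reads per gene over a size factor of each library, and are not corrected for gene length. The libraries held 19345868 to 22305681 reads. Values of single libraries are listed in the order of batches 1 to 4. Log2 differences are day 5 minus day 1 of log2(value + 1), with the standard error (SE) of a limma fit across all genes tested. Levels are given as mean ± SD with n = 4 libraries per age. A gene was called when its limma adjusted p was under 0.05. Of 16739 genes tested, 9307 (55.6%) were called, 28.8% of all tested as higher at day 5 and 26.8% as lower. The balance turned when library sizes left out the 1% of genes with the highest values, with 4220.0 genes called higher and 5336 lower. Between the ages other tissues' transcripts also differed: 15 of 16 oocyte and germline markers were called higher, with summed values of 228775 to 350458 at day 5 and 15992 to 27781 at day 1. All 6 yolk genes were called higher, with sums of 589523 to 1297260 at day 5, against 1804, 4415, 122 and 111 at day 1. The day 1 sums thus differed between batches 1 and 2 and batches 3 and 4. The stage of the day 1 worms beyond the label was not tested. All 16 muscle markers were called lower, with sums of 57085 to 117454 at day 5 and 282156 to 425327 at day 1. Hypodermal and moult markers were called lower in 14 of 16 and higher in 1, with sums of 7637 to 12599 at day 5 and 53930 to 75905 at day 1. Intestinal markers were called lower in 6 of 11 and higher in 1, with sums of 88834 to 116390.0 at day 5 and 206057 to 270003 at day 1. Of 12 neuronal markers 9 were called lower and 2 higher, and their sums overlapped, at 9247 to 11454 at day 5 and 11408 to 15607 at day 1. No marker was at 0 in every library, and the part of these tissues in the results was not tested. In RNA of whole worms, fewer cells of a type and less RNA per cell cannot be told apart.

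Of the 10 glycolysis genes 7 were called, 3 higher and 4 lower, beside 55.6% of all genes tested. edgeR on the recovered reads called the same 7, beside 27.7% of all genes tested as higher and 27.9% as lower. The hexokinase hxk-1 and the GAPDH genes gpd-1 and gpd-4 were higher at day 5. The phosphofructokinase pfk-1.1, the aldolase aldo-1 and the GAPDH genes gpd-2 and gpd-3 were lower. gpi-1, aldo-2 and pyk-1 were not called. The median log2 difference of the 10 was 0.08, against -0.065 over all genes tested, since members that were higher and members that were lower stood on both sides of 0. The values of the ages did not overlap in 7 of the 10, against 52.8% of all genes tested. Together the 10 genes took 0.280 to 0.290% of the reads at day 5 and 0.256 to 0.376% at day 1, so the ranges overlapped while the makeup of the sum differed.

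**Figure D1:**
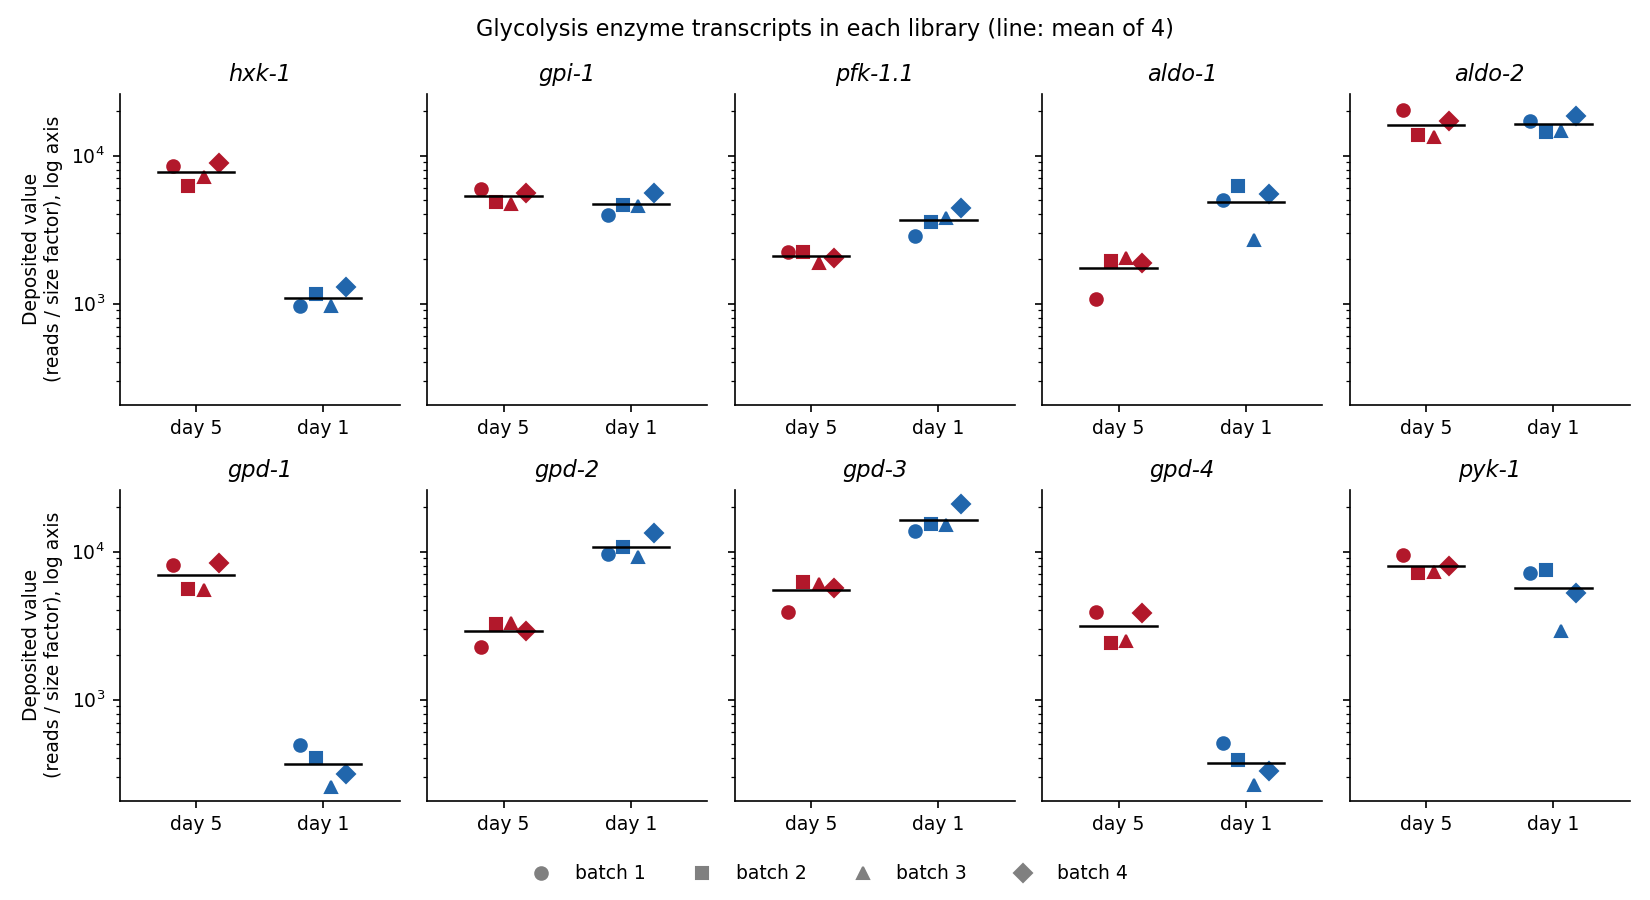
Deposited values (read counts over size factor, log axis) of the 10 genes in each library, with adult day 5 in red on the left and adult day 1 in blue on the right of each panel; marker shapes stand for batches and the line is the mean of 4 libraries. gpd-1, gpd-4 and hxk-1 lay higher at day 5 in all libraries, and gpd-2, gpd-3, aldo-1 and pfk-1.1 lower.

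The largest differences among the 10 were in GAPDH. gpd-1 (WBGene00001683; WBcel235 chromosome II, 10394129 to 10395349, plus strand, 3 exons) had values of 8111, 5580.0, 5509 and 8382 at day 5, against 491, 405, 259 and 315 at day 1. Every day 5 library stood far above every day 1 library. With 6896 ± 1564 at day 5 and 367 ± 102 at day 1, the ratio of the means was 18.8, and the log2 difference was 4.24 with an SE of 0.25 (limma adjusted p = 1.93e-06). Within batches 1 to 4 the log2 difference was 4.04, 3.78, 4.41 and 4.73. It lay above that of 97.2% of the genes tested.

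Its near-identical copy gpd-4 (WBGene00001686; II, 10171268 to 10172498, plus strand, 3 exons), on the same chromosome 221630 bases away, had 3908, 2419, 2496 and 3815 at day 5, against 506, 393, 263 and 328 at day 1. The groups again did not overlap. Its level was 3159.7 ± 812 at day 5 and 372 ± 104 at day 1, giving a log2 difference of 3.09 with an SE of 0.26 (limma adjusted p = 1.28e-05). Among the day 5 libraries, those of batches 1 and 4 were the highest for both copies, and among the day 1 libraries that of batch 3 was the lowest for both. Whether the authors divided, left out or otherwise treated reads matching both copies of a pair is unknown. The split within a pair, the sum of the pair, its share of GAPDH and levels per length may all depend on this. How far each does was not tested.

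The other pair moved the opposite way. gpd-2 (WBGene00001684; X, 3113443 to 3114689, minus strand, 3 exons) had 2272, 3265, 3270.1 and 2904 at day 5, against 9592, 10721, 9235 and 13411 at day 1. All day 5 libraries were below all day 1 libraries, and that of batch 1 was the lowest. The level was 2928 ± 469.6 at day 5 and 10739.9 ± 1890.1 at day 1, giving a log2 difference of -1.87 with an SE of 0.19 (limma adjusted p = 3.97e-05).

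gpd-3 (WBGene00001685; X, 3112091 to 3113341, minus strand, 3 exons) had 3882, 6213, 6081 and 5684 at day 5, against 13661, 15368, 15194 and 21065 at day 1. The order of the libraries was close to that of gpd-2, with batch 1 lowest at day 5 and batch 4 highest at day 1. It averaged 5465 ± 1079 at day 5 and 16322 ± 3254 at day 1, giving a log2 difference of -1.58 with an SE of 0.22 (limma adjusted p = 0.000202). Within batches the log2 difference was -2.207 to -1.498 for gpd-2 and -1.89 to -1.31 for gpd-3.

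These 2 genes are the downstream members of an operon, a cluster transcribed as 1 precursor, whose upstream gene is mai-1, a homologue of the mitochondrial ATPase inhibitor. In the annotation 101 bases separate gpd-2 from gpd-3, and gpd-2 shares 22 exonic bases on the same strand with mai-1. mai-1 (WBGene00003124) had 113, 138, 226 and 232 at day 5, against 225, 232, 209 and 237 at day 1. The day 5 libraries of batches 1 and 2 were below all of day 1 and those of batches 3 and 4 were within its range, and the log2 difference of -0.42 with an SE of 0.28 (limma adjusted p = 0.24) was not called. Whether mai-1 and the GAPDH genes of the operon differed in their change was not tested.

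With both shifts the makeup of GAPDH transcripts differed between the ages. Per length, with exonic lengths of 1121 to 1155 bases, the order of levels at day 5 was gpd-1 at 6151 ± 1395 per kb, gpd-3 at 4732 ± 934, gpd-4 at 2794 ± 718 and gpd-2 at 2542 ± 408, and each neighbour in this order overlapped the next. At day 1 gpd-3 stood at 14132 ± 2817 per kb and gpd-2 at 9323 ± 1641, without overlap between them, and gpd-4 at 329 ± 91.7 and gpd-1 at 328 ± 91.0. gpd-1 and gpd-4 together made up 66.1, 45.8, 46.1 and 58.7% of the summed GAPDH values at day 5, against 4.11, 2.97, 2.09 and 1.83% at day 1. The log2 ratio of this pair to the pair gpd-2 and gpd-3 averaged 0.25 ± 0.59 at day 5 and -5.22 ± 0.54 at day 1 (SD, n = 4 each), a difference of 5.47 (exact permutation test, two-sided, p = 0.0286, the smallest that 4 against 4 libraries allow, and adjusted p = 0.0357 over 5 paralog ratios). A ratio within a library does not depend on how libraries are scaled. In the sum of the 4 genes the values were 18173, 17478, 17357 and 20785 at day 5, against 24250, 26887, 24951 and 35119 at day 1, so the total was lower in every day 5 library, at 0.664 of the day 1 mean. Of all reads the 4 genes took 0.0779 to 0.0936% at day 5 and 0.117 to 0.175% at day 1. The muscle markers, lower in 16 of 16, moved with gpd-2 and gpd-3. So did most hypodermal and moult markers (14 of 16), neuronal markers (9 of 12) and intestinal markers (6 of 11). The oocyte and germline markers, higher in 15 of 16, and all 6 yolk genes moved with gpd-1 and gpd-4. Their part in these differences was not tested.

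**Figure D2:**
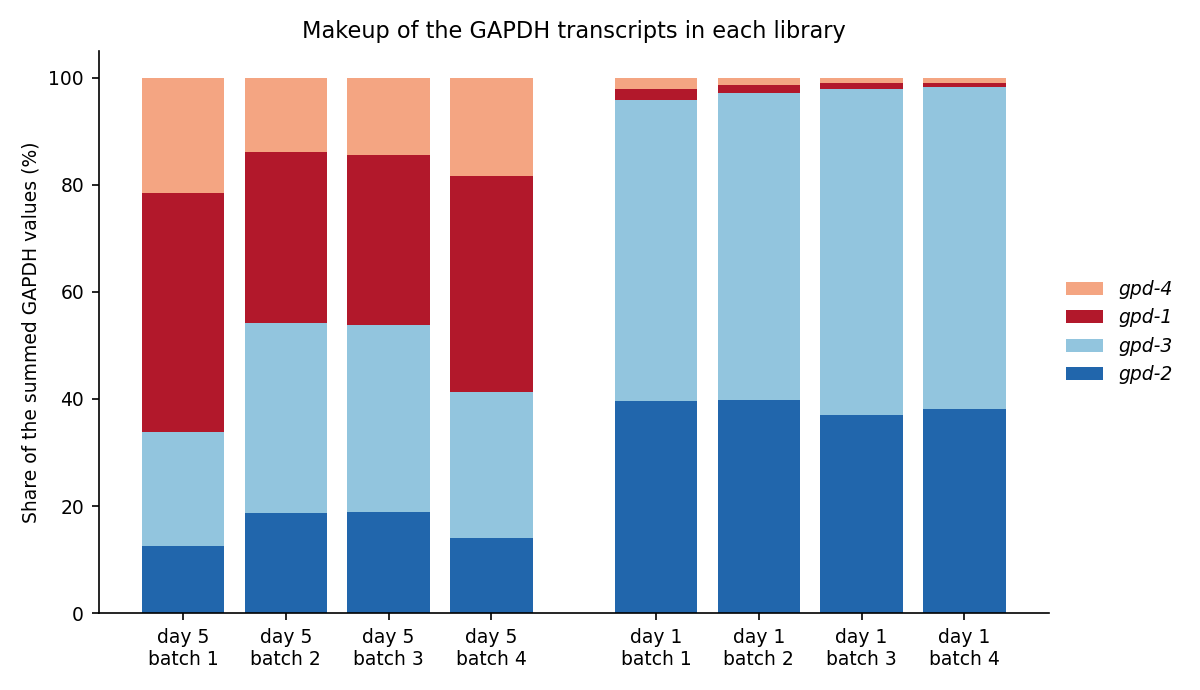
Share (%) of each GAPDH gene in the summed GAPDH values of a library, with the 4 adult day 5 libraries on the left and the 4 adult day 1 libraries on the right; bars start at 0 and add up to the whole. gpd-1 and gpd-4 together took 45.8 to 66.1% at day 5 and 1.83 to 4.11% at day 1.

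At the entry of the pathway, hxk-1 (WBGene00008780; I, 9271479 to 9278689, minus strand), a hexokinase, had 8562, 6243, 7147 and 8936 at day 5, against 970.4, 1168, 966 and 1291 at day 1. No library of day 5 came near the day 1 range. Its level was 7722 ± 1251 at day 5 and 1099 ± 159 at day 1, a ratio of the means of 7.03 and a log2 difference of 2.81 with an SE of 0.18 (limma adjusted p = 3.26e-06), above that of 94.3% of genes tested.

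The other hexokinases were not called. hxk-2 averaged 1557 ± 91.3 at day 5 and 1493 ± 201 at day 1, giving a log2 difference of 0.07 with an SE of 0.16 (limma adjusted p = 0.749). hxk-3 averaged 1595 ± 207 at day 5 and 1489 ± 198 at day 1, at 0.10 with an SE of 0.17 (limma adjusted p = 0.652). These small differences turned to -0.18 and -0.15 under scaling without the top 1% of genes, which leaves the 1% with the highest values out of the library size, and stayed uncalled. hxk-1 took 67.7 to 73.7% of the summed hexokinase values at day 5 and 25.9 to 27.6% at day 1. The log2 ratio of hxk-1 to hxk-2 and hxk-3 was 1.28 ± 0.17 at day 5 and -1.44 ± 0.06 at day 1 (SD, n = 4 each), a difference of 2.73 (two-sided exact permutation p = 0.0286, adjusted p = 0.0357). The sum of the 3 hexokinases was 9221 to 12126 at day 5 and 3654 to 4708 at day 1, without overlap. Oocyte and germline markers (15 of 16) and all 6 yolk genes moved in the same direction as hxk-1. Muscle markers (16 of 16) and most hypodermal and moult (14 of 16), neuronal (9 of 12) and intestinal markers (6 of 11) moved the other way. The part of these marker groups in the hxk-1 difference was not tested.

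gpi-1 (WBGene00013597; I, 13576148 to 13581611, plus strand), which interconverts the phosphates of glucose and fructose, had 5953, 4857, 4739 and 5617 at day 5, against 3963, 4639, 4539.6 and 5567 at day 1. The ranges overlapped, with only the day 1 library of batch 1 clearly below the rest. The log2 difference was 0.18 with an SE of 0.17 (limma adjusted p = 0.391), and -0.07 under scaling without the top 1% of genes.

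pfk-1.1 (WBGene00022199; X, 2940872 to 2945485, plus strand), the phosphofructokinase of the committing step, had 2240.4, 2239, 1875 and 2019 at day 5, against 2879.8, 3572, 3795 and 4419 at day 1. The groups did not overlap, and the day 5 libraries were close to each other. Its level was 2093 ± 179 at day 5 and 3666 ± 635 at day 1, giving a log2 difference of -0.80 with an SE of 0.17 (limma adjusted p = 0.0033), and -0.36, -0.67, -1.02 and -1.13 within batches 1 to 4.

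Its paralog pfk-1.2 was at far lower levels, with 15.8, 76.4, 54.03 and 44.8 at day 5, against 323, 214, 22.02 and 18.4 at day 1. The day 1 libraries of batches 1 and 2 were high and those of batches 3 and 4 low, a split also seen in the summed values of 10 sperm genes, at 546, 4634, 2854 and 2811 at day 5, against 8117, 4666, 379 and 420 at day 1. The part of sperm transcripts in this pattern was not tested. pfk-1.2 was not called (log2 difference -0.81 with an SE of 0.95, limma adjusted p = 0.501), but was called lower, at -2.63 (adjusted p = 0.00417), with batches 3 and 4 of day 1 left out, and stood at 1.01 (adjusted p = 0.175) with batches 1 and 2 of day 1 left out. The log2 ratio of pfk-1.1 to pfk-1.2 was 5.66 ± 1.03 at day 5 and 5.64 ± 2.38 at day 1, a difference of 0.02 (two-sided exact permutation p = 0.971) that moved between -0.81 and 0.78 when single libraries were left out.

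Genes of the bifunctional enzymes that make and remove the fructose bisphosphate activator of phosphofructokinase were called higher. pfkb-1.2 averaged 2178 ± 234.9 at day 5 and 938 ± 124 at day 1, giving a log2 difference of 1.22 with an SE of 0.17 (limma adjusted p = 0.000229). pfkb-1.1 averaged 3207 ± 509 at day 5 and 2151 ± 252 at day 1, giving a log2 difference of 0.57 with an SE of 0.17 (limma adjusted p = 0.0168), and was not called under scaling without the top 1% of genes (0.32, adjusted p = 0.0741) or with batches 1 and 2 of day 1 left out (0.45, adjusted p = 0.0881). pfkb-1.2 shares 18 exonic bases with inx-7 on the opposite strand.

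The aldolases differed from each other. aldo-1 (WBGene00011474; III, 13563346 to 13564937, minus strand) had 1077, 1939, 2019 and 1876 at day 5, against 4991, 6209.9, 2681 and 5479 at day 1. All day 5 libraries were below all day 1 libraries, and the lowest of each age were batch 1 at day 5 and batch 3 at day 1. Its level was 1728 ± 438 at day 5 and 4840.4 ± 1524 at day 1, giving a log2 difference of -1.46 with an SE of 0.30 (limma adjusted p = 0.00237). Within batches it was -2.21, -1.68, -0.41 and -1.55, a wider range than for any other called gene of the 10.

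aldo-2 (WBGene00017166; III, 5874673 to 5876625, minus strand) had 20292, 13690.1, 13346 and 17193 at day 5, against 17243, 14462, 14659 and 18560.5 at day 1. The ranges covered each other. With 16130.3 ± 3274 at day 5 and 16231 ± 2004 at day 1, the log2 difference was -0.02 with an SE of 0.20 (limma adjusted p = 0.934). It shares 34 exonic bases with F01F1.3 on the opposite strand. Per length, aldo-2 was at 11869 ± 2409 per kb at day 5 and 11944 ± 1475 at day 1, the highest of the 10 genes at day 5, while at day 1 its range overlapped those of gpd-3 and gpd-2.

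aldo-1 took 5.04, 12.4, 13.1 and 9.84% of the summed aldolase values at day 5, against 22.4, 30.04, 15.5 and 22.8% at day 1. The log2 ratio of aldo-1 to aldo-2 was -3.24 ± 0.69 at day 5 and -1.80 ± 0.50 at day 1 (SD, n = 4 each), a difference of -1.44 (two-sided exact permutation p = 0.0286, adjusted p = 0.0357). It was not called without the day 5 library of batch 1 (-1.11) or of batch 4 (-1.46), both at an adjusted exact permutation p of 0.0714, although the ages still did not overlap. With 3 against 4 libraries p moves in coarse steps, and without batch 4 of day 5 the difference was no smaller than with all libraries. The summed aldolase values overlapped, at 15365 to 21369 at day 5 and 17340.4 to 24039 at day 1.

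**Figure D3:**
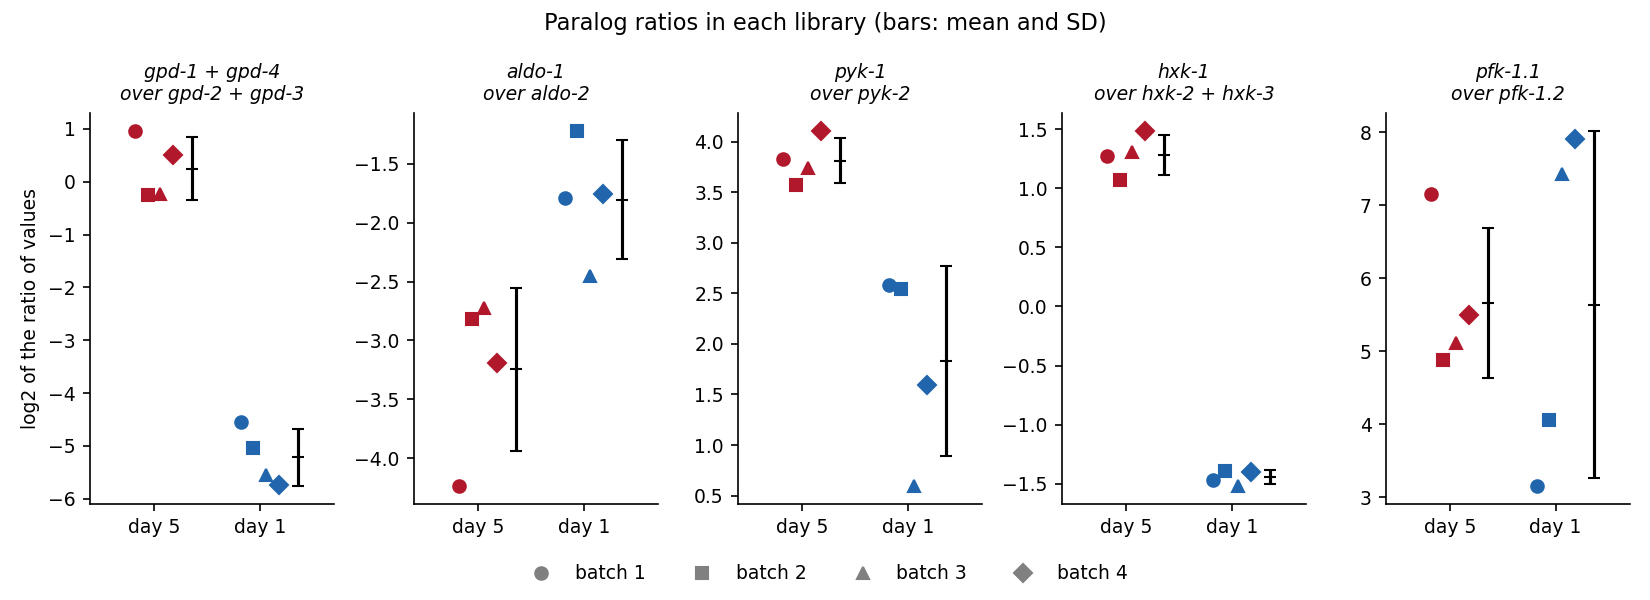
Log2 ratio of the values of paralogs within each library, for adult day 5 (red, left) and adult day 1 (blue, right); shapes stand for batches, and bars give the mean and SD of 4 libraries on an axis of each panel's own. The ages did not overlap for GAPDH, aldolase, pyruvate kinase and hexokinase, with differences of 5.47, -1.44, 1.98 and 2.73, and overlapped for phosphofructokinase.

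At the last step, pyk-1 (WBGene00009126; I, 9168432 to 9177488, plus strand), a pyruvate kinase, had 9437, 7151, 7243 and 8036 at day 5, against 7135, 7521, 2898 and 5246 at day 1. The day 1 libraries of batches 3 and 4 were below all others, while those of batches 1 and 2 were at the level of day 5. Whether the day 1 libraries differed in RNA quality or in coverage by transcript length was not tested. The log2 difference of 0.57 with an SE of 0.29 (limma adjusted p = 0.127) was not called. With batches 1 and 2 of day 1 left out it was 1.02 and called (adjusted p = 0.00664), and with batches 3 and 4 of day 1 left out it was 0.11 (adjusted p = 0.599).

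The second pyruvate kinase gene, pyk-2, was lower at day 5. It had 666, 599.9, 543 and 466 at day 5, against 1192, 1291, 1918 and 1737 at day 1, giving a log2 difference of -1.41 with an SE of 0.21 (limma adjusted p = 0.000352). It shares 204 exonic bases with ZK593.11 on the opposite strand, and no strand marking is stated for the libraries. The log2 ratio of pyk-1 to pyk-2 was 3.81 ± 0.22 at day 5 and 1.83 ± 0.94 at day 1 (SD, n = 4 each), a difference of 1.98 (two-sided exact permutation p = 0.0286, adjusted p = 0.0357). At day 1 it was 2.58 and 2.54 in batches 1 and 2, against 0.596 and 1.59 in batches 3 and 4. The size of the difference thus depends on the day 1 batches. Leaving out pairs of day 1 batches was not tried for this ratio. pyk-2 took 5.48 to 7.74% of the summed pyruvate kinase values at day 5, against 14.3, 14.6, 39.8 and 24.9% at day 1. These shares are not corrected for length and may be too low for pyk-2, with 1727 exonic bases against 3940 for pyk-1.

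Among 11 other glycolysis enzymes and regulators, 2 were called higher and 5 lower. The 7 called were 63.6% of the list, near the 55.6% of all genes tested, and the median log2 difference was -0.56, against -0.065 over all genes tested. The triose phosphate isomerase tpi-1 averaged 5324 ± 460.2 at day 5 and 8674 ± 2045 at day 1, giving a log2 difference of -0.68 (limma adjusted p = 0.0152). The phosphoglycerate kinase pgk-1 was at 3861 ± 379 at day 5 and 5749 ± 1006 at day 1 (-0.56, limma adjusted p = 0.0202), and the phosphoglycerate mutase ipgm-1 at 3865 ± 141 at day 5 and 6491 ± 1281 at day 1 (-0.73, limma adjusted p = 0.00584). The lactate dehydrogenase ldh-1, which turns pyruvate into lactate, was at 1465 ± 243 at day 5 and 3244 ± 753 at day 1 (-1.14, limma adjusted p = 0.00117). The enolase enol-1 was below day 1 in every day 5 library, at 13799.7 ± 1676 at day 5 and 18509 ± 2408 at day 1, but was not called (-0.42, limma adjusted p = 0.0653). It was called by edgeR (-0.44, adjusted p = 0.0491), by DESeq2 (-0.41, adjusted p = 0.0449), under scaling without the top 1% of genes (-0.67, adjusted p = 0.00595) or to a fixed sum (-0.51, adjusted p = 0.0185), and with batches 1 and 2 of day 1 left out (-0.55, adjusted p = 0.039). For tpi-1 and pgk-1 the call depended on the day 1 libraries: without those of batches 3 and 4 the log2 differences were -0.38 (adjusted p = 0.0632) and -0.35 (adjusted p = 0.0843), and without that of batch 4 alone -0.57 (adjusted p = 0.0526) and -0.47 (adjusted p = 0.0703). ipgm-1 stayed called with batches 3 and 4 of day 1 left out, at -0.48 (adjusted p = 0.019). pgk-1 was also not called without the day 5 library of batch 2 or batch 3.

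**Figure D4:**
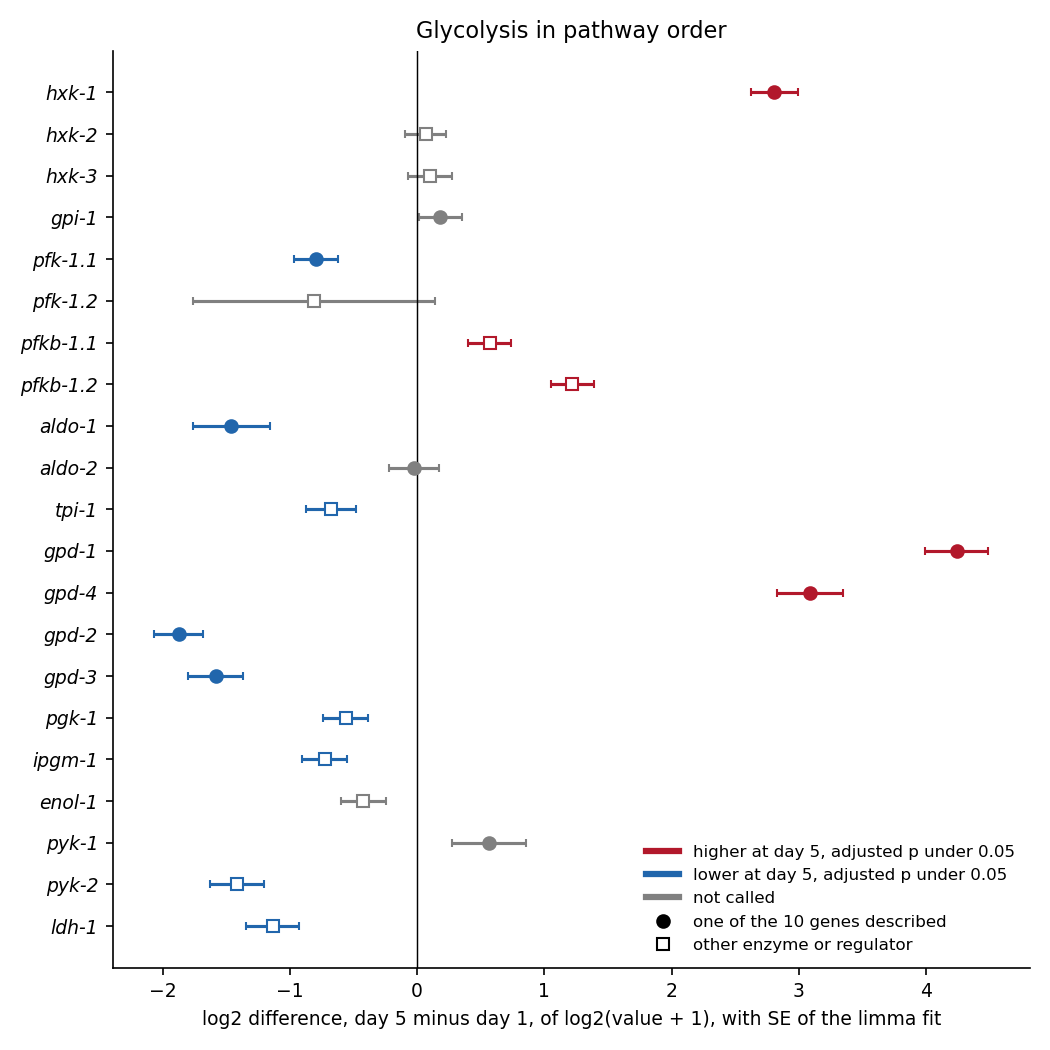
Log2 differences, day 5 minus day 1 of log2(value + 1), with the SE of the limma fit, for the 10 genes (filled circles) and 11 other glycolysis enzymes and regulators (open squares) in pathway order from top to bottom; red is called higher, blue called lower and grey not called. Paralogs of 1 step stood apart, with gpd-1 at 4.24 and gpd-4 at 3.09 beside gpd-2 at -1.87 and gpd-3 at -1.58.

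Per length, the order of the 10 genes also differed between ages. At day 5 it ran aldo-2, gpd-1, gpd-3, hxk-1 (3675 ± 596 per kb), gpd-4, gpd-2, gpi-1 (2542 ± 282), pyk-1 (2022 ± 268), aldo-1 (1379 ± 349) and pfk-1.1 (588 ± 50.3). Only aldo-2 from gpd-1, pyk-1 from aldo-1, and aldo-1 from pfk-1.1 had ranges that did not overlap among neighbours. At day 1 it ran gpd-3, aldo-2, gpd-2, aldo-1 (3863 ± 1216), gpi-1 (2246 ± 319), pyk-1 (1447 ± 537), pfk-1.1 (1029.6 ± 178), hxk-1 (523 ± 75.6), gpd-4 and gpd-1. There gpd-2 stood apart from aldo-1, pfk-1.1 from hxk-1, and hxk-1 from gpd-4. The length of pyk-1, 3940 exonic bases, is the union over 6 transcripts, so its level per kb may be too low. Levels of the GAPDH genes per kb, and so their places in both orders, may be too low if reads shared by copies were left out.

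Pathways that feed or drain glycolysis were counted in lists from general knowledge. Of 6 genes of gluconeogenesis and the glyoxylate shunt 2 (33.3%) were called lower, near the 26.8% called lower of all genes tested, and 4 were not called. The lower ones were pck-1, a phosphoenolpyruvate carboxykinase (3701 ± 1098 at day 5, 12340.1 ± 3435 at day 1, log2 difference -1.75, limma adjusted p = 0.000488), and the fructose bisphosphatase fbp-1 (-0.68, limma adjusted p = 0.00728). The list median was -0.42, against -0.065 over all genes tested.

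For pyruvate dehydrogenase and its regulators, limma called 2 of 6 genes lower and 1 higher, beside 26.8% lower and 28.8% higher of all genes tested, and the list median was -0.27. The lower ones were the subunit genes pdhb-1 (-0.997, limma adjusted p = 0.00421) and dld-1 (-0.56, limma adjusted p = 0.0113), and pdhb-1 was at -0.61 (adjusted p = 0.0105) with batches 3 and 4 of day 1 left out. The higher one was the phosphatase pdp-1, which activates the complex, at 2405 ± 431 at day 5 and 921 ± 26.1 at day 1 (1.37, limma adjusted p = 0.000126).

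In a list of tricarboxylic acid cycle genes 16 of 23 were lower and 1 was higher, beside 26.8% lower and 28.8% higher of all genes tested. The list also held related forms of the enzymes, such as aco-1, idh-1, idh-2 and mdh-1, so the counts are not of the cycle alone. The list median was -0.64, against -0.065 over all genes tested. The isocitrate dehydrogenases idhg-2 (325 ± 115.3 at day 5, 1421 ± 412 at day 1, -2.17, limma adjusted p = 0.000452) and idh-2 (624 ± 75.9 at day 5, 1879 ± 457 at day 1, -1.56, limma adjusted p = 0.000189) were furthest down. The higher one was sdha-2, a succinate dehydrogenase flavoprotein gene, at 3798 ± 307 at day 5 and 1669 ± 189 at day 1 (1.19, limma adjusted p = 0.000163). In the pentose phosphate pathway only the transaldolase tald-1 was called among 7 genes found (-1.18, limma adjusted p = 0.00085), or 14.3%, beside 55.6% of all genes tested, and the list median was -0.25.

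Among 13 genes for trehalose and glycogen, which store and release glucose, 5 were higher and 4 lower. The 9 called were 69.2% of the list, beside 55.6% of all genes tested, and the list median was 0.17, against -0.065. The glycogenin genes, whose proteins prime glycogen, went opposite ways: gyg-2 averaged 8867 ± 2173 at day 5 and 106 ± 61.6 at day 1 (6.53, limma adjusted p = 2.53e-06), and gyg-1 833 ± 99.1 at day 5 and 3125 ± 532 at day 1 (-1.90, limma adjusted p = 2.82e-05). The glycogen phosphorylase pygl-1 averaged 24743 ± 5869.9 at day 5 and 8562 ± 1817 at day 1 (1.53, limma adjusted p = 0.000436). The trehalases tre-1 (0.91) and tre-2 (1.195) and the debranching enzyme agl-1 (0.61) were higher, with limma adjusted p of 0.000986, 0.00154 and 0.0227. The trehalases tre-3 (-0.61) and tre-4 (-1.15) and the trehalose phosphate synthase tps-2 (-0.77) were lower, with limma adjusted p of 0.0305, 0.00161 and 0.00155. tre-3 was not called with the replicate block (adjusted p = 0.0571), and agl-1 was not called under scaling without the top 1% of genes (adjusted p = 0.117). tre-3 also lost its call without the day 1 library of batch 2 or 4 or the day 5 library of batch 2, 3 or 4, and agl-1 without the day 1 library of batch 4 or the day 5 library of batch 1 or 4. With batches 3 and 4 of day 1 left out neither was called (adjusted p = 0.0827 for tre-3 and 0.0837 for agl-1), and with batches 1 and 2 of day 1 left out tre-3 was not (adjusted p = 0.0537).

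For each of the 10 genes, the nearest profiles among 10161 other genes averaging 100 or more in value were found by the root mean square difference of centred log2 values over the 8 libraries. For gpd-1 they were mex-3 (0.12), an RNA-binding regulator of the early embryo, and cpar-1 (0.16), a centromeric histone variant. For a gene with a large age difference, a near profile must have a similar difference. Nearness is thus no sign of shared function or tissue, which was not tested. gpd-4 lay nearest to pgm-3 (0.11) and T05B9.1 (0.13), and hxk-1 to ptr-2 (0.09), a patched-related gene, and dscc-1 (0.14). gpd-2 lay nearest to best-14 (0.09), of the bestrophin family, and ucr-2.2 (0.11), of the ubiquinol-cytochrome c reductase family, and gpd-3 to C44E12.1 (0.11) and C03D6.1 (0.12). aldo-1 was nearest to C30G7.2 (0.12) and aat-1 (0.15), an amino acid transporter gene, and pfk-1.1 to lfe-2 (0.07) and T12B3.2 (0.09). Among the genes not called, gpi-1 was nearest to the hexokinase hxk-3 (0.07) and R31.2 (0.07), aldo-2 to the proteasome gene pbs-5 (0.08) and sur-7 (0.10), and pyk-1 to scyl-1 (0.07) and apb-1 (0.08).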

How the data were processed

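Poly(A)-selected RNA of whole N2 worms was sequenced in 8 libraries. The submitters' processing notes name HISAT2 and HTSeq with build WBcel235. Their versions, the annotation and how multi-mapped reads were counted are not given there. The authors deposited a table called FPKM, whose values proved to be a signal without length correction, read counts over a size factor for each library. All values (100%) were whole multiples of 1 step per library within 0.001 reads, and the reads so recovered numbered 19345868 to 22305681 per library. A value of 1 is thus about 1 read, and values under about 100, as of pfk-1.2, rest on few reads. No columns of other samples were present. Of the gene IDs 16887 had a symbol, and annotation release 115 of WBcel235 gave 1-based positions and lengths. Of the genes in the lists 4 symbols were not matched (6pgl-1, fgt-1, fgt-2 and opt-2), so glucose transporters were not analysed here.

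The limma test, version 3.58.1 in R 4.3.3, was fitted to log2(value + 1) of genes averaging 1 or more, with group alone as a term, a mean-variance trend and Benjamini-Hochberg adjustment over all 16739 genes. The members and lists were chosen with earlier results of these data known. Named were all members, all other glycolysis enzymes, the 2 largest called differences of each other list, and every called gene of a direction with 5 or fewer. Paralog ratios used exact permutation tests over 70 splits in Python 3.11.15, which ignored the batches. A permutation within batches was not run, and with so few libraries it could not reach a p under 0.05. Alternatives were other pseudocounts, filters and scalings, the replicate block, edgeR 4.0.16 and DESeq2 1.42.0 on recovered reads, and libraries left out. The scripts were tested on simulated counts in which few genes were changed, unlike these data, so that test checks the code alone. Replicate numbers are labelled batches with 1 library per age, so they pair the libraries. Deviations from group means of same-batch libraries correlated at -0.224, 0.235, -0.095 and -0.017 across genes.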

Additional observations from a re-analysis of the deposited data

Results flagged for a closer look

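In 1 of 90 groups of 4 libraries tested, 1 library stood apart from the other 3. The day 5 library of batch 1 had an aldo-1 value of 1077, while the other day 5 libraries had 1876 to 2019. Chance alone marks about 1 in 20 such groups. The same library was the lowest of day 5 for gpd-2 (2272) and gpd-3 (3882), without standing apart there. Without it the log2 difference of aldo-1 was -1.25, against -1.46 with all libraries.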

How the results depend on the processing

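The 10 genes gave 7 calls, 3 higher and 4 lower, under every pseudocount, filter and scaling tried, with edgeR and DESeq2, with the replicate block and without each library in turn. With batches 1 and 2 of day 1 left out there were 8, as pyk-1 was then called. Over all genes 9307 were called by limma, 9303 by edgeR, 9705 by DESeq2, 8810 with the replicate block, and 8251 to 9448 without single libraries. Of 200 alternative values of the 10 genes 192 kept direction and call. Among the 40 named genes followed through the alternatives, the block changed the call of tre-3 (-0.61) alone. Scaling without the top 1% of genes moved the median over all genes to -0.30 (edgeR gave -0.23 and DESeq2 -0.20), against -0.065 in limma, and turned gpi-1 to -0.07, hxk-2 to -0.18 and hxk-3 to -0.15, none called. The share of calls that were higher was then 44.2%, against 51.8%. hxk-2 was also turned by a fixed sum (-0.015), and was -0.0191 to 0.13 without single libraries. With batches 1 and 2 of day 1 left out hxk-3 was at -0.0352 and pfk-1.2 at 1.01. aldo-2, near 0, was at 0.0068 with DESeq2, 0.0089 with batches 3 and 4 of day 1 left out, and -0.14 to 0.0614 without single libraries. For these sign changes the cause was not tested.

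Without single libraries the log2 ratio differences were 5.23 to 5.69 for GAPDH, -1.65 to -1.11 for aldolase, 1.57 to 2.23 for pyruvate kinase, 2.66 to 2.799 for hexokinase and -0.81 to 0.78 for phosphofructokinase. The aldolase ratio lost its call without the day 5 library of batch 1 (-1.11) or 4 (-1.46, against -1.44 with all libraries), with the ages still apart; with 3 against 4 libraries p moves in coarse steps. Its adjusted exact permutation p was then 0.0714, and for the other 3 ratios called it stayed at 0.0357 to 0.0476.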

Other observations

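Within the near-identical GAPDH pairs the split of values also differed between the ages, a comparison made after the values were seen and given without a test. The ratio of gpd-1 to gpd-4 was 2.08, 2.31, 2.21 and 2.197 in the day 5 libraries, against 0.970, 1.03, 0.983 and 0.962 at day 1. The copies were thus about equal at day 1, while at day 5 gpd-1 was the higher. The ratio of gpd-2 to gpd-3 was 0.585, 0.525, 0.538 and 0.511 at day 5, against 0.702, 0.698, 0.608 and 0.637 at day 1. In neither pair did the ages overlap. The sources used here do not say how reads shared by the copies were counted.

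The ratio of gpd-2 to mai-1, the first gene of the same operon, was 12.5 to 23.7 at day 5 and 42.6 to 56.5 at day 1, also without overlap and also compared after the values were seen.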
